A study of Mus musculus with 6 samples.

Results

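Tumour necrosis factor (TNF), 5 receptors of its family and 4 genes of the death pathways below them were followed in the mouse pancreas during acute pancreatitis (AP). The 10 genes were chosen by name, as the ligand gene Tnf, the receptor genes Tnfrsf1a, Tnfrsf1b, Tnfrsf12a, Tnfrsf10b and Fas, and the genes Ripk1, Ripk3, Mlkl and Casp8, from the 22556 genes listed. That choice was made with earlier results of these data known. Levels are given as TPM, the reads of a gene per length as a share of the listed genes in the same mouse. Of 22 acinar marker genes, 12 have no value here and take no part in that total, so every TPM value is relative to the other genes. All 10 reached a mean of 1 TPM over the mice, which was required for a test, among 16814 tested genes. Bulk pancreas RNA was measured in C57BL/6 wild type mice of postnatal week 8, with 2 mice in each of 3 groups. All mice were male by the methods. Saline mice received saline, AP mice received caerulein (spelled cerulein in the labels), a peptide that overstimulates acinar cells, in 10 hourly injections, and polyI:C-pretreated AP mice (polyI:C-AP mice) received polyI:C plus caerulein. PolyI:C is a synthetic double-stranded RNA, given at 10 mg/kg 8 or 1 h before caerulein, and the interval used for the sequenced mice is not named in the sources used here. Tissue was collected 24 h after caerulein was first injected.

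TNF binds the receptors encoded by Tnfrsf1a and Tnfrsf1b. The former carries a death domain and assembles a membrane complex around the kinase RIPK1, from which NF-kB is activated. When that complex changes to a cytosolic form, caspase-8 can start apoptosis, and when caspase-8 is not active, RIPK1 and RIPK3 bind each other and RIPK3 phosphorylates MLKL, which permeabilises the plasma membrane in necroptosis. Fas and the TRAIL receptor encoded by Tnfrsf10b reach caspase-8 through the adaptor FADD, and the TWEAK receptor encoded by Tnfrsf12a lacks a death domain. In experimental pancreatitis, acinar cells are known to die by both necrosis and apoptosis.

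Promoters of 4 members with contrasting patterns between the groups are shown here. RefSeq (GRCm38.p6) gave 10 promoter windows for 9 members, each from 250 bases before to 50 after the start, and of these 260 bases up to 10 after the start are printed for 4 members, 5′ to 3′ on the gene's strand. Tnfrsf12a had the largest log2 fold change of the members in AP mice on the log2(TPM + 0.5) scale, Mlkl was the only member higher in both polyI:C-AP mice than in both AP mice, Tnfrsf1b was among the members lower in both, and Fas was just under the fold limit in AP mice. Capitals mark matches to an interferon-stimulated response element (ISRE, written GAAA, any 2 bases, GAAA), a STAT site (GAS, TTCNNNGAA), an AP-1 site (TGANTCA) or an NF-kB site (GGGA, any 4 bases, CC), searched on both strands.
Tnfrsf12a (chr17:23677440-23677699, minus strand): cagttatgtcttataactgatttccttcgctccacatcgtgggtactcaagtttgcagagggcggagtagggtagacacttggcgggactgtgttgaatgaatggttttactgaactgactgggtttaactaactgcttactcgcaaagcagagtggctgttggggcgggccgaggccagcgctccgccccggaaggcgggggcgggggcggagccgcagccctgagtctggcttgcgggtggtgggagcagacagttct
Mlkl (chr8:111338196-111338455, minus strand): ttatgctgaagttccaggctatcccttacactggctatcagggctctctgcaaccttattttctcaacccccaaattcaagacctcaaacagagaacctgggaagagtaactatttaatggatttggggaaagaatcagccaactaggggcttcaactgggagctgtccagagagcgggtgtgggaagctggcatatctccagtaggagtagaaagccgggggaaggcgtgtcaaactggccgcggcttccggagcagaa
Tnfrsf1b (chr4:145246861-145247120, minus strand): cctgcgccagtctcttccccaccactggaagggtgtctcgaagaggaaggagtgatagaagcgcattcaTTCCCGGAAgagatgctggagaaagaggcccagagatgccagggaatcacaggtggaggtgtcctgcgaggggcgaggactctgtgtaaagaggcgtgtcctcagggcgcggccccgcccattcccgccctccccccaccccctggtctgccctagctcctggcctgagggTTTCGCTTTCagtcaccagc
Fas (chr19:34290409-34290668, plus strand): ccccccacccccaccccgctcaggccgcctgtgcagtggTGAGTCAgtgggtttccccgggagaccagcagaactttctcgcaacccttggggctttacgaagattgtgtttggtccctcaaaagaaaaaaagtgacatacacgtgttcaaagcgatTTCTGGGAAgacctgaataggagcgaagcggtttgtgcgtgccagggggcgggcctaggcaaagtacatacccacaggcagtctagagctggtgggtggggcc
The Tnfrsf1b stretch holds a GAS match 181 bases before the start and an ISRE match on the other strand 10 bases before it, and the Fas stretch holds an AP-1 match 211 bases and a GAS match 93 bases before the start. None of the 4 motifs matched in the windows of Tnfrsf12a, Mlkl, Ripk3 and Casp8. The Casp8 window (from chr1:58802252) lies inside the gene, whose span starts at 58795374, so bases before that start were not searched. Over the 10 windows, the ISRE letters were found in 2, of Tnfrsf1b and of the second start of Ripk1, against 3.43% of 32817 RefSeq promoters of the same length. The GAS letters were in 4 windows, of Tnfrsf1a, Tnfrsf1b, Fas and the second start of Ripk1, against 8.29% of all promoters, and in Ripk1 1 of its 2 GAS matches overlaps the ISRE match. The NF-kB letters were in 1, of Tnf, against 20.7%, and the AP-1 letters in 1, of Fas, against 7.81%. These matches are descriptions of letters and no measure of binding. Tnfrsf10b has no window.

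Depth was estimated from the spacing of low TPM values, and the 6 libraries held between 3296904 and 10824903 reads, with the saline mice the shallowest. At the median gene length, a single read stood for 0.217 and 0.265 TPM in the saline mice and for 0.0958 to 0.148 TPM in the others. Over all tested genes, the median log2 fold change in AP relative to saline mice stood at 0.45, or 0.06 once scaled by median of ratios, so changes against saline mice are also read against that shift. The 10 acinar markers with values summed to 15873 to 15984 TPM (saline mice), 3785 to 4569 TPM (AP mice) and 4774 to 5258 TPM (polyI:C-AP mice), and islet markers were present in every mouse. AP replicate 2 stood apart in the summed B cell markers (42.0 TPM, against 2.19 to 13.7 TPM in the other 5 mice), and counts that change by over 1.5 times without it are given both ways. In bulk tissue, fewer cells of a type and less RNA per cell cannot be told apart.

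In AP mice, the members were higher than in saline mice throughout. Both AP mice lay above both saline mice for 10 of the 10 members, against 52.6% of all tested genes. With limma, at adjusted p ≤ 0.05 and at least a 2-fold change, 8 of the 10 were called up and none down, where 18.2% of tested genes were called up and 22.2% in either direction. The 8 were Tnf, Tnfrsf1a, Tnfrsf1b, Tnfrsf12a, Tnfrsf10b, Ripk3, Mlkl and Casp8. Fas and Ripk1 passed the adjusted p and missed the fold limit. The median log2 fold change of the members was 1.96, or 1.60 after median-of-ratios scaling. Groups of 2 mice allow a two-sided exact permutation p of no less than 0.333 for a single gene, so each adjusted p rests on the variance that limma shares across genes, and it measures only the spread between these mice. Without AP replicate 2, 5 members were called, and Tnf, Tnfrsf1b and Ripk3 were not (adjusted p = 0.082, 0.14 and 0.054 from limma).

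**Figure D1:**
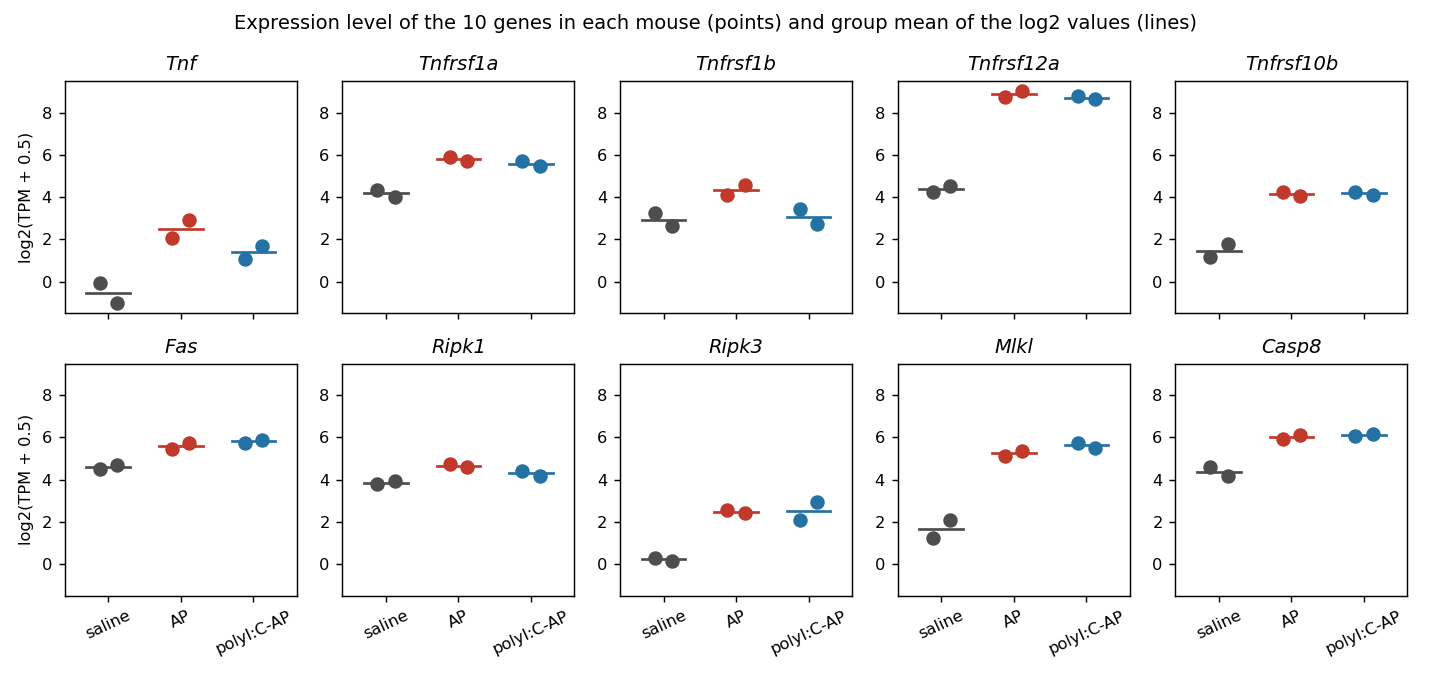
Log2(TPM + 0.5) of the 10 members in each mouse (points) with the group mean of the log2 values (lines), for saline, AP and polyI:C-AP mice. For all 10 genes the AP points lie above the saline points, and Tnfrsf12a stands highest of all in the 4 caerulein-treated mice, at 400 to 517 TPM.

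Tnf, which encodes the ligand (ENSMUSG00000024401, chr17:35199381-35202007, minus strand, GRCm38), had levels of 0.450 and 0 TPM (saline mice), 3.69 and 7.17 TPM (AP mice) and 1.63 and 2.69 TPM (polyI:C-AP mice). The estimated reads behind these values were 1 and 0, 13 and 32, and 7 and 14. No group overlapped another. Its log2 fold change on the log2(TPM + 0.5) scale, which understates changes of low genes, was 3.04 in AP relative to saline mice (standard error 0.60, adjusted p = 0.0075 from limma) and -1.12 in polyI:C-AP relative to AP mice (95% interval -2.56 to 0.32, adjusted p = 0.48). Against saline mice, polyI:C-AP mice were at 1.92 (adjusted p = 0.044), a call not made in 12 of 18 alternatives (adjusted p up to 0.18). In summed estimated reads per depth, the AP to saline ratio was 24.6 with an exact 95% interval of 4.2 to 994, which covers counting error only.

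Tnfrsf1a encodes the TNF receptor with a death domain (ENSMUSG00000030341, chr6:125349362-125362484, plus strand). It had levels of 19.7 and 15.6 TPM (saline mice), 59.3 and 51.7 TPM (AP mice) and 51.7 and 44.0 TPM (polyI:C-AP mice). The last pair overlapped the AP mice by a narrow margin and stood above the saline mice. It rose by 1.63 on the log2 scale in AP mice (standard error 0.17, adjusted p = 0.00061 from limma) and was at -0.21 with polyI:C (95% interval -0.62 to 0.20, adjusted p = 0.66). In polyI:C-AP relative to saline mice it was at 1.42 (adjusted p = 0.0011), and at 0.97, under the 2-fold limit, after median-of-ratios scaling.

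Tnfrsf1b encodes the TNF receptor without a death domain (ENSMUSG00000028599, chr4:145213463-145246870, minus strand), which is found mainly on immune and endothelial cells. It had levels of 8.97 and 5.62 TPM (saline mice), 16.5 and 23.5 TPM (AP mice) and 10.3 and 6.15 TPM (polyI:C-AP mice). The polyI:C-AP mice lay below both AP mice and overlapped the saline mice, the only member to do so. It rose by 1.41 on the log2 scale in AP mice (standard error 0.33, adjusted p = 0.015 from limma), and was called in 11 of 16 alternatives. It was not called after median-of-ratios scaling (log2 fold change 1.00, adjusted p = 0.056), without saline replicate 2 or without either AP mouse, among others. With polyI:C its log2 fold change was -1.26 (95% interval -2.06 to -0.46), with an adjusted p of 0.16 from limma and of 0.041 from limma-voom on the estimated reads. Against saline mice the polyI:C-AP mice were at 0.15 (95% interval -0.65 to 0.95), and at -0.27 after median-of-ratios scaling. The TPM ratio of Tnfrsf1a to Tnfrsf1b within a mouse was 2.20 and 2.77 in saline mice, 3.58 and 2.20 in AP mice, and 5.03 and 7.16 in polyI:C-AP mice, where it was higher than in the other 4 mice.

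Tnfrsf12a, which encodes the receptor of TWEAK (ENSMUSG00000023905, chr17:23675445-23677468, minus strand), had the largest log2 fold change of the members on the log2(TPM + 0.5) scale, while the ratio of mean TPM was slightly larger for Tnf (24.1). It had levels of 18.5 and 22.7 TPM (saline mice), 432 and 517 TPM (AP mice) and 437 and 400 TPM (polyI:C-AP mice). Its mean TPM in AP mice was 23.0 times the saline mean, and its rise by 4.49 on the log2 scale (standard error 0.14, adjusted p = 1.4e-05 from limma) ranked 92 of 16814 from the highest. With polyI:C it was at -0.18 relative to AP mice (95% interval -0.51 to 0.16, adjusted p = 0.65), and the values of both groups overlapped.

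Among the 5 receptors, Tnfrsf12a went from 25.9% and 31.3% of their summed TPM in the saline mice to between 75.9% and 78.1% in the 4 caerulein-treated mice. Fas went from 31.4% and 35.4% to between 7.57% and 11.2%. The sum itself was 71.4 and 72.6 TPM in saline mice, 569 and 661 TPM in AP mice, and 571 and 525 TPM in polyI:C-AP mice. The share of Tnfrsf10b stayed between 2.42% and 4.03% in all 6 mice.

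Tnfrsf10b, the mouse receptor of TRAIL (ENSMUSG00000022074, chr14:69767472-69784411, plus strand), had levels of 1.73 and 2.92 TPM (saline mice), 18.4 and 16.1 TPM (AP mice) and 18.6 and 16.8 TPM (polyI:C-AP mice). The caerulein-treated groups overlapped and both stood apart from the saline mice. It rose by 2.68 in AP mice (standard error 0.23, adjusted p = 0.00030 from limma), with 0.04 for polyI:C (95% interval -0.51 to 0.58). Fas (ENSMUSG00000024778, chr19:34290666-34327772, plus strand), the receptor of Fas ligand, had levels of 22.4 and 25.7 TPM (saline mice), 43.1 and 53.2 TPM (AP mice) and 53.0 and 58.8 TPM (polyI:C-AP mice). It had the highest mean of the members in saline mice, and after Ripk1 the smallest difference in AP mice. Its log2 fold change in AP mice was 0.98 (standard error 0.16, adjusted p = 0.0037 from limma), just under the limit of 1, and in polyI:C-AP relative to saline mice it was 1.2 (adjusted p = 0.0018), a call lost after median-of-ratios scaling at 0.75.

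**Figure D2:**
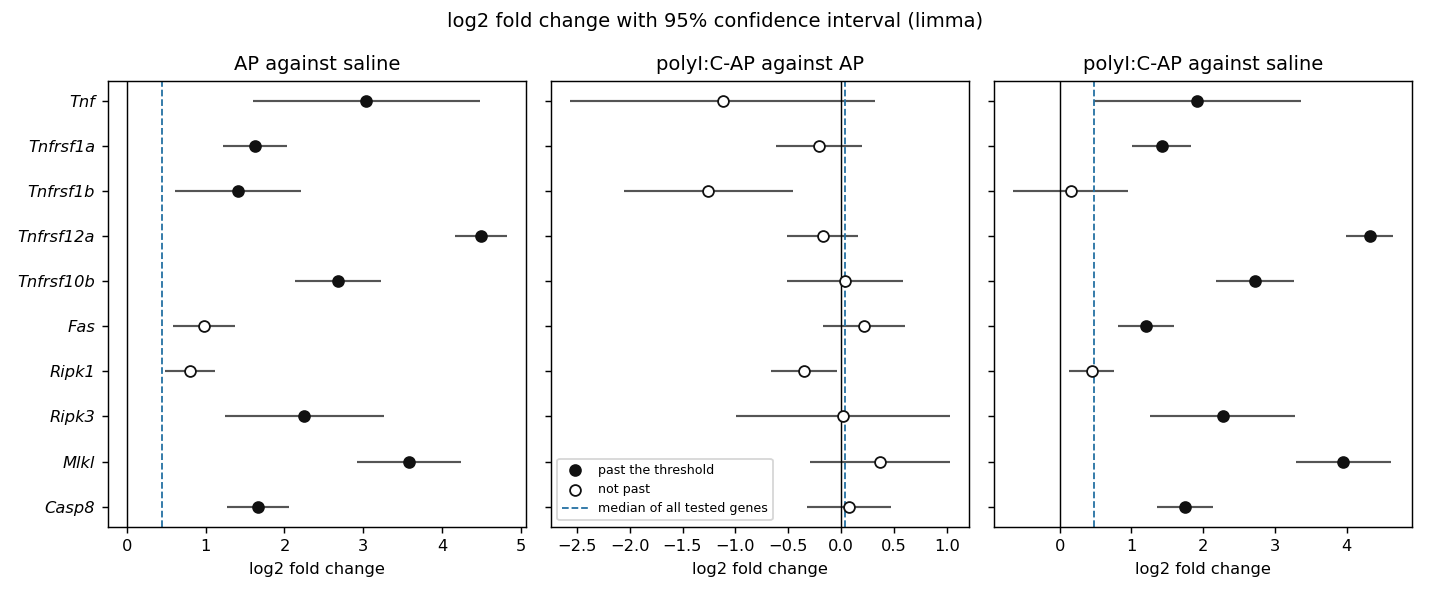
Log2 fold change of each member with its 95% interval from limma in the 3 comparisons, filled where past the threshold, with a dashed line at the median of all tested genes. In AP relative to saline mice all 10 members lie above that median (0.45). In polyI:C-AP relative to AP mice the intervals of Tnfrsf1b and Ripk1, not adjusted for the number of genes, lie below 0. Neither gene passed the threshold there (adjusted p = 0.16 and 0.30 from limma).

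Ripk1, the kinase shared by the survival and death complexes (ENSMUSG00000021408, chr13:34002363-34037147, plus strand), had levels of 13.4 and 14.6 TPM (saline mice), 26.1 and 23.4 TPM (AP mice) and 20.8 and 17.8 TPM (polyI:C-AP mice). The groups did not overlap. Its log2 fold changes were 0.80 in AP relative to saline mice (standard error 0.13, adjusted p = 0.0034 from limma), -0.35 with polyI:C (95% interval -0.67 to -0.04, adjusted p = 0.30) and 0.45 in polyI:C-AP relative to saline mice (adjusted p = 0.034), which is close to the median of all genes, 0.48. Of its exon bases, 2.89% overlap Serpinb6a on the opposite strand and 6.12% a pseudogene on the same strand.

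Ripk3 encodes the kinase that commits a cell to necroptosis (ENSMUSG00000022221, chr14:55784995-55788865, minus strand). It had levels of 0.738 and 0.605 TPM (saline mice, 2 estimated reads each), 5.38 and 4.78 TPM (AP mice) and 3.70 and 7.08 TPM (polyI:C-AP mice). The polyI:C-AP mice bracketed the AP mice. It rose by 2.25 in AP mice (standard error 0.42, adjusted p = 0.0060 from limma), with 0.02 for polyI:C and a wide 95% interval of -0.99 to 1.03. The rise was called in 13 of 16 alternatives, with log2 fold changes from 1.86 to 2.75 over them, and the exceptions included the fits without AP replicate 1 or 2.

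Mlkl, the executor of necroptosis (ENSMUSG00000012519, chr8:111311797-111338177, minus strand), had levels of 1.89 and 3.72 TPM (saline mice), 34.8 and 40.6 TPM (AP mice) and 52.6 and 45.1 TPM (polyI:C-AP mice). No groups overlapped, and it was the only member with both polyI:C-AP mice above both AP mice, as 27.7% of tested genes were. It rose by 3.58 in AP mice (standard error 0.28, adjusted p = 0.00021 from limma). The further difference with polyI:C was 0.37 (95% interval -0.29 to 1.03, adjusted p = 0.64), which did not pass the test. Within a mouse, the TPM of Mlkl was 0.141 and 0.255 times that of Ripk1 in saline mice, 1.33 and 1.73 times in AP mice, and 2.52 and 2.54 times in polyI:C-AP mice. These ranges did not overlap, in a ratio that sets the only member higher in both polyI:C-AP mice over a member lower in both. Relative to Ripk3, the TPM of Mlkl was 6.47 and 8.49 times in AP mice and 14.2 and 6.37 times in polyI:C-AP mice, which overlapped. The TPM of Ripk1 was 18.1 and 24.1 times that of Ripk3 in saline mice, 4.86 and 4.90 times in AP mice, and 5.63 and 2.51 times with polyI:C.

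Casp8, the initiator caspase below the death receptors (ENSMUSG00000026029, chr1:58795374-58847503, plus strand), had levels of 23.3 and 17.5 TPM (saline mice), 61.3 and 69.6 TPM (AP mice) and 66.1 and 71.8 TPM (polyI:C-AP mice). It rose by 1.67 in AP mice (standard error 0.16, adjusted p = 0.00050 from limma). With polyI:C the difference was 0.08 (95% interval -0.32 to 0.47, adjusted p = 0.90), and the AP and polyI:C-AP mice overlapped.

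By TPM, the order of the members differed between groups. In saline mice Fas (24.1 ± 2.32 TPM, SD, n = 2) was followed by Tnfrsf12a (20.6 ± 3.0), Casp8 (20.4 ± 4.15) and Tnfrsf1a (17.7 ± 2.93), each overlapping its neighbour. Ripk1 (14.0 ± 0.849) lay below them, and Ripk3 (0.671 ± 0.0940) and Tnf (0.225 ± 0.318) were lowest. In AP mice Tnfrsf12a (474 ± 59.7 TPM) led, above Casp8 (65.5 ± 5.93), Tnfrsf1a (55.5 ± 5.40), Fas (48.2 ± 7.13) and Mlkl (37.7 ± 4.11). Tnfrsf1a and Fas overlapped there, and Mlkl had passed Ripk1 (24.8 ± 1.90). Tnf (5.43 ± 2.46) and Ripk3 (5.08 ± 0.420) overlapped at the low end.

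For 6 of the 10 members, the levels in polyI:C-AP mice overlapped those in AP mice. None of the 10 members (0) was called in polyI:C-AP relative to AP mice with limma, where 0.845% of tested genes were called, 0.44% up and 0.404% down. At unadjusted p ≤ 0.05 and a 2-fold change, and by limma-voom at an adjusted p, 1 member was called in each case, which was Tnfrsf1b. Of the 16814 tested genes, 728 were called by the former rule, and limma-voom called 111 genes up and 210 down. The groups did not overlap for 4 members, with Mlkl higher (27.7% of tested genes were higher in this way) and Tnf, Tnfrsf1b and Ripk1 lower (22.1% lower). The median log2 fold change of the members was -0.08, against 0.04 for all tested genes. The 95% intervals of Tnfrsf1a, Tnfrsf12a, Tnfrsf10b, Fas, Ripk1 and Casp8 stayed within a 2-fold change, and those of Tnf, Tnfrsf1b, Ripk3 and Mlkl reached beyond it or close to it.

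The third comparison set the polyI:C-AP mice against saline mice. In polyI:C-AP relative to saline mice, 8 of the 10 were called up, where 16.9% of tested genes were called up, 2.97% down and 19.9% in either direction, and the exceptions were Tnfrsf1b and Ripk1, at 0.15 and 0.45 on the log2 scale. For 9 members both polyI:C-AP mice lay above both saline mice, against 54.4% of tested genes. Tnfrsf12a, Tnfrsf10b, Mlkl and Casp8 were at 4.32, 2.72, 3.95 and 1.74 (adjusted p = 1.9e-05, 0.00030, 0.00017 and 0.00047 from limma) and were called in every alternative run. This comparison shares its mice with the other 2 comparisons. The count was 5 after median-of-ratios scaling and 5 with limma-voom.

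Cell type markers are given beside the members because they moved between the groups. The 12 macrophage and monocyte markers summed to 399 to 587 TPM (saline mice), 2498 to 2751 TPM (AP mice) and 437 to 535 TPM (polyI:C-AP mice), with 9 called up in AP mice and 7 called down with polyI:C. The latter count was 0 without AP replicate 1, AP replicate 2 or polyI:C-AP replicate 2, and 1 without polyI:C-AP replicate 1. Lyz2 made up most of that sum in AP mice. Like that sum, Tnf, Tnfrsf1b and Ripk1 were lower in both polyI:C-AP mice than in both AP mice, as were 22.1% of tested genes. Their mean TPM in polyI:C-AP mice was 0.40, 0.41 and 0.78 times that in AP mice. Relative to saline mice, 4 of the 12 macrophage and monocyte markers were still called up in polyI:C-AP mice, and 2 were called down. By flow cytometry, the paper reports that polyI:C did not affect macrophage infiltration. It reports fewer neutrophils with polyI:C, by flow cytometry for Ly6G and by MPO staining. The genes Ly6g and Mpo have no value here. Neutrophil markers with values summed to 5.15 to 16.6, 61.1 to 69.7 and 20.6 to 42.7 TPM, with 3 of 5 tested called up in AP mice and none with polyI:C. Without either AP mouse 0 of 4 tested were called up, and Mmp8, 1 of the 3, then fell below the level required for a test. T and NK cell markers summed to 6.81 to 9.72, 4.17 to 9.35 and 33.8 to 54.9 TPM, and of the last sums Gzma alone gave 26.9 and 47.0 TPM, with 0 TPM listed in the other 4 mice. The 6 duct cell markers summed to 152 to 181, 1454 to 1492 and 1158 to 1188 TPM, with 4 called up in AP mice, or 2 after median-of-ratios scaling or without AP replicate 2. Endothelial and B cell markers had no calls in the 3 comparisons, 4 of 9 stellate cell and fibroblast markers were called up in AP mice (2 without AP replicate 2), and 6 of 10 acinar markers were called down. With polyI:C, 4 of the 10 acinar markers were called up relative to AP mice, where 0.44% of tested genes were called up. These were Cckar, Bhlha15, Amy2a5 and Rbpjl, called in 12, 11, 9 and 7 of 16 alternatives. The part of any of these cells in the members' levels was not tested.

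**Figure D3:**
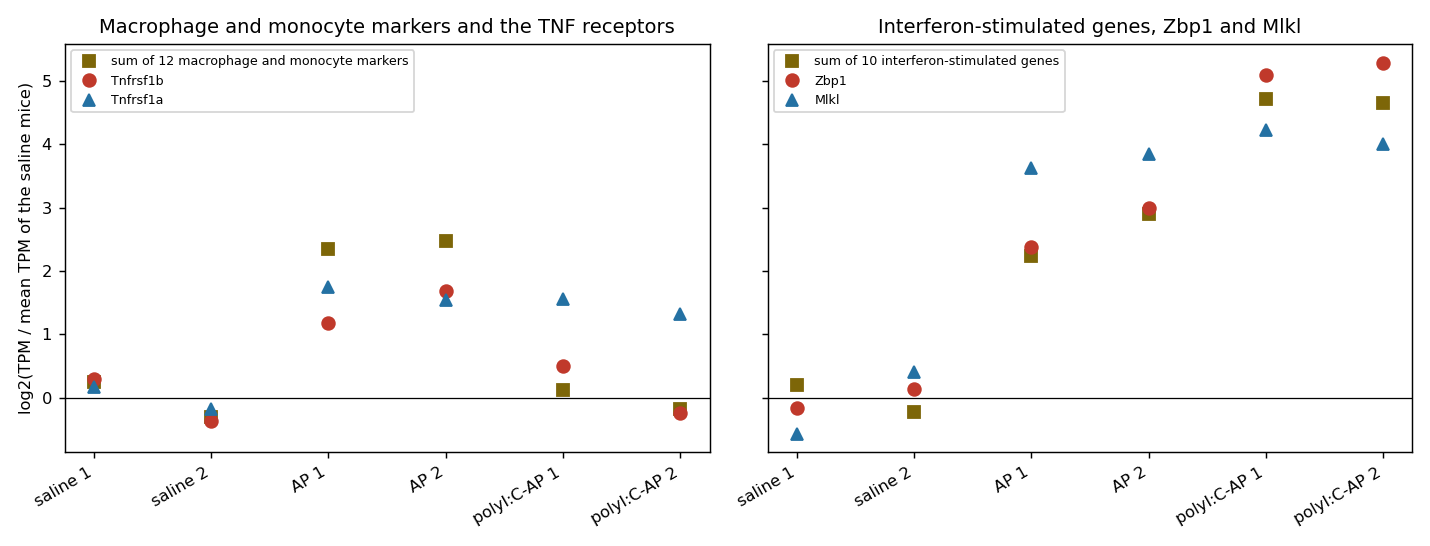
Levels in each mouse relative to the mean of the saline mice, as log2 of the TPM ratio, for the summed macrophage markers beside Tnfrsf1b and Tnfrsf1a on the left, and for the summed interferon-stimulated genes beside Zbp1 and Mlkl on the right. The macrophage sum, in AP mice mostly Lyz2, and Tnfrsf1b are back near 0 in the polyI:C-AP mice, while Tnfrsf1a stays up. Single macrophage markers differ, with 4 of 12 still called up and 2 called down there relative to saline mice. The interferon-stimulated sum and Zbp1 rise once more with polyI:C.

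Among the other ligands and receptors of the family, 6 of 23 tested genes were called up in AP mice and none down, where 18.2% of all tested genes were called up. Of 16 other TNF superfamily ligands, 7 were tested and 1 was called up in AP mice, Tnfsf10, which encodes TRAIL, the ligand of Tnfrsf10b. It had levels of 6.49 and 5.62 TPM (saline mice), 19.3 and 15.3 TPM (AP mice) and 20.4 and 31.9 TPM (polyI:C-AP mice), a log2 fold change of 1.44 (adjusted p = 0.0036 from limma) in AP mice that was called in 14 of 16 alternatives, the exceptions being limma-voom and the fit without AP replicate 1. Tnfsf12, which encodes TWEAK, had 1.71 and 3.16, 7.61 and 5.32, and 3.34 and 2.65 TPM, a difference of 1.27 that did not pass the test (adjusted p = 0.074). Fasl, the ligand of Fas, had 0 TPM listed for each saline mouse and 0.316 to 0.647 TPM for the others, and was not tested.

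Of 23 other TNF receptor superfamily genes, 16 were tested and 5 were called up in AP mice and none down, or 4 after median-of-ratios scaling or without either AP mouse and 8 without saline replicate 1. Eda2r, a receptor of an ectodysplasin form, had levels of 1.55 and 2.80 TPM (saline mice), 72.2 and 49.1 TPM (AP mice) and 59.6 and 54.2 TPM (polyI:C-AP mice), a rise of 4.53 in AP mice (adjusted p = 8.7e-05 from limma). Tnfrsf23, a mouse TRAIL decoy receptor, rose by 3.10, Tnfrsf11b, which encodes osteoprotegerin, by 2.78 and Tnfrsf11a, which encodes RANK, by 2.51. None was called with polyI:C. Among the 5 genes of TNF shedding, Rhbdf2, which encodes the iRhom2 partner of ADAM17, rose by 2.09 and Adam17, the sheddase of TNF and of both its receptors, by 1.25 in AP mice, and after median-of-ratios scaling 1 of the 5 genes was called. Adam10 was called only in polyI:C-AP relative to saline mice, at 1.55 (adjusted p = 0.00073), with 0.70 in AP mice.

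In the complex that forms on the TNF receptor and leads to NF-kB, 8 of 23 tested genes were called up in AP mice and none down, with 18.2% of all genes called up, and 4 after median-of-ratios scaling. Tnip1, which encodes a partner of the ubiquitin editor A20, rose by 4.11 on the log2 scale from 3.15 and 3.69 TPM in saline mice to 68.2 and 65.6 TPM in AP mice (adjusted p = 1.3e-05 from limma), and was at 43.1 and 41.8 TPM with polyI:C. Tnfaip3, which encodes A20, rose by 2.41, Tradd, the adaptor of Tnfrsf1a, by 1.70 and Rbck1, a subunit of the linear ubiquitin ligase, by 1.44. None of the 23 was called with polyI:C. A20 and its partner are known to restrain NF-kB signaling.

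Around RIPK3 and MLKL, 5 of 15 necroptosis and complex II genes were called up in AP mice, or 3 without AP replicate 2, and 1 with polyI:C. Of all tested genes, 18.2% were called up in AP mice and 0.44% with polyI:C. Tlr3, the receptor of double-stranded RNA, rose by 2.56 in AP mice (adjusted p = 0.00068 from limma), Hsp90aa1, a chaperone of RIPK3, by 2.27, and Chmp4b, of the ESCRT complex that repairs membranes, by 1.59. Zbp1, a nucleic acid sensor that engages RIPK3, had levels of 0.242 and 0.298 TPM (saline mice), 1.41 and 2.16 TPM (AP mice) and 9.24 and 10.6 TPM (polyI:C-AP mice). It rose by 1.55 in AP mice (adjusted p = 0.0081) and again by 2.20 with polyI:C (standard error 0.31, adjusted p = 0.033), the latter called in 6 of 16 alternatives with adjusted p between 0.014 and 0.35. Without either AP mouse or polyI:C-AP replicate 2, 0 of all tested genes were called by limma in that comparison. Fadd, the adaptor of caspase-8, had 0.37 (adjusted p = 0.46), Cflar, its inhibitor, -0.01 (adjusted p = 0.97) and Ticam1, the adaptor of Tlr3, 0.06 (adjusted p = 0.86) in AP mice. The 10 interferon-stimulated genes summed to 24.7 to 33.2 TPM (saline mice), 137 to 216 TPM (AP mice) and 731 to 760 TPM (polyI:C-AP mice), and 6 of them were called up with polyI:C. In AP mice 9 were called up, or 5 after median-of-ratios scaling or without AP replicate 2. The part of interferon signaling in the levels of Zbp1 and Mlkl was not tested.

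Below caspase-8, 9 of 14 apoptosis genes were called up in AP mice and 1 was called down, and none was called with polyI:C. Of all tested genes, 18.2% were called up and 4.03% down in AP mice. Bax, which permeabilises mitochondria, rose by 3.09 (adjusted p = 0.00019 from limma), Bid, which caspase-8 cleaves, by 2.62 and Apaf1, which forms the apoptosome, by 2.32. Casp9, the caspase activated on the apoptosome, fell by 2.34 on the log2 scale, from 172 and 190 TPM in saline mice to 42.8 and 29.3 TPM in AP mice, and was at 54.9 and 59.0 TPM with polyI:C. Exon overlap with other genes was looked up for the members only, so reads of a neighbouring gene in the Casp9 value were not examined. With median-of-ratios scaling 6 of the 14 genes were called up and 2 down. The median log2 fold changes in AP mice were 1.35 for this list, 1.05 for the other receptors, 0.73 for the receptor complex and 0.69 for the necroptosis genes, against 0.45 for all tested genes.

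**Figure D4:**
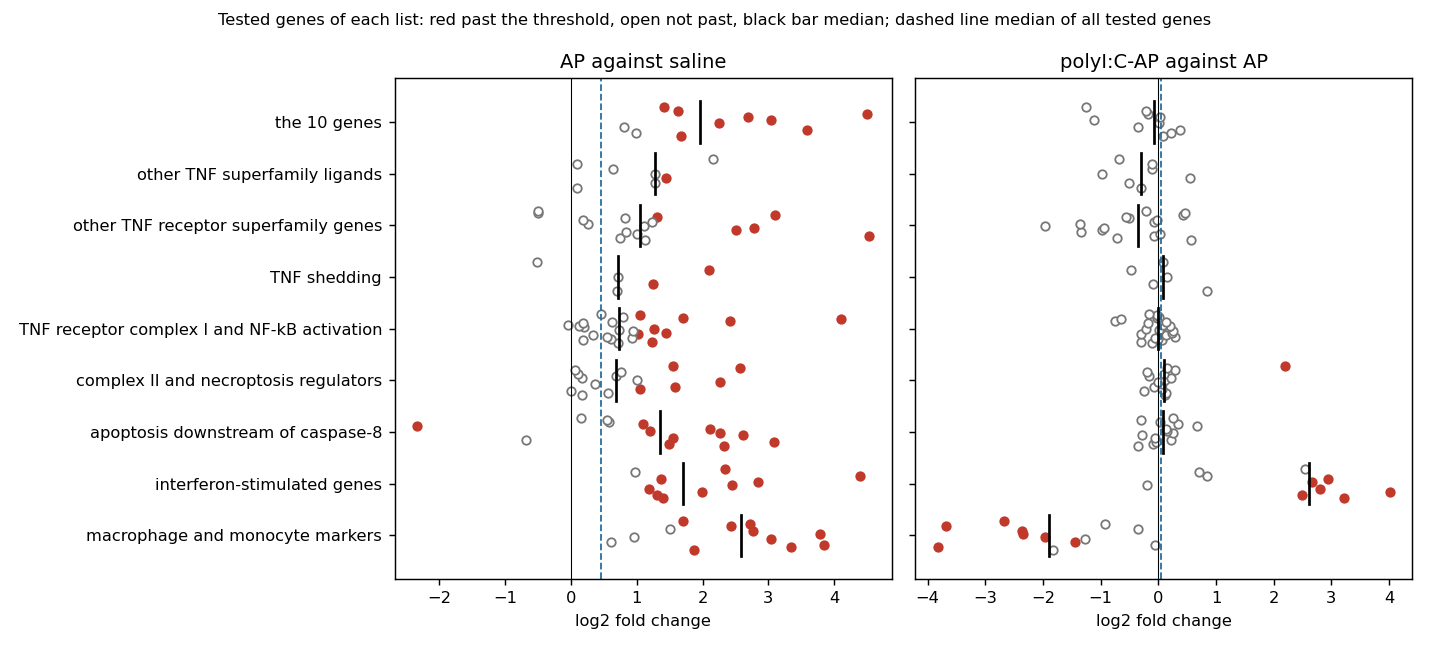
Log2 fold change of every tested gene in the members, the pathway lists, the interferon-stimulated genes and the macrophage markers, for AP over saline and polyI:C-AP relative to AP mice, with red points past the threshold, black bars for list medians and a dashed line for the median of all tested genes. In AP mice 8 of 10 members are past the threshold, and with polyI:C 0 members are and the red points lie among interferon-stimulated genes, macrophage markers and Zbp1.

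The genes with the most similar patterns over the 6 mice were found by the distance between centred log2 profiles among 12011 genes of a mean level from 5 TPM up. For Tnfrsf12a these were Mboat1 (distance 0.217), Tmc5 and Krt8, and for Tnf they were Ms4a6d (0.631), Plat and Clec4a3. For Tnfrsf1b they were Cnn2 (0.268), Cyp1b1 and Rgl1, for Tnfrsf1a Sars2 (0.125), Mapkapk3 and Cast, and for Casp8 Map3k20 (0.148), Nsdhl and Snhg12. For Mlkl they were Psrc1, Tmsb10 and Tnfrsf23, and for Fas Snrpe (0.0584), Hspd1 and Polr1c. A small distance describes a shared pattern over 3 groups of 2 mice.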

How the data were processed

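Bulk pancreas RNA of 6 mice was analysed, 2 per group by the labels. Per the labels and methods, the authors used Trimmomatic on the reads, STAR for alignment to mm10 and htseq-count for gene counts, and deposited TPM values. The step from counts to TPM and the gene annotation are not given in the sources used here. The study's methods name a stranded mRNA kit and the labels also a ribosomal depletion kit, which would keep different RNA. TPM was used as deposited, without rescaling.

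Symbols, coordinates and exon lengths came from GENCODE M21, in which 22490 of 22556 identifiers were found. A model with 1 coefficient per group was fitted with limma 3.58.1 (R 4.3.3) to log2(TPM + 0.5) of 16814 genes whose mean was 1 TPM or more. The prior variance followed log2(mean TPM × exon length + 1). The limma call needed a Benjamini-Hochberg adjusted p within 0.05, over all tested genes, and at least a 2-fold change. Reads per library were estimated from the spacing of low TPM values, of which 50.7% to 62.1% lay within 0.1 of a whole multiple, against 17.4% to 18.5% with gene lengths shuffled. In simulated data, a larger share of calls was false than the adjusted p allows. Pseudocount, filter, scaling, prior and threshold were each changed in turn, and further alternatives were limma-voom on the estimated reads, only the groups compared, the replicate number as a block, and each mouse left out.

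All members were named. Of each pathway list up to 4 called genes were named, largest change first, with the ligands and partners Fasl, Tnfsf10, Tnfsf12, Zbp1, Fadd, Cflar, Ticam1 and Tlr3. The members and lists were chosen with earlier results of these data known. Deviations from group means of equally numbered mice were barely related (correlation across genes of 0.0075, 0.035 and -0.0039 for the 3 pairs of groups). Of 22 acinar markers, 12 have no row in the tables used here and were not analysed here. TPM adds up to the same total over the listed genes, so the acinar sum covers only the other 10 markers.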

Additional observations from a re-analysis of the deposited data

How the results depend on the processing

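Over 540 values of single members under 18 alternatives, 498 kept their direction and their side of the threshold, 25 lost a call, 7 gained one and 10 changed sign, none of which was a called value. Calls of Tnfrsf1a, Tnfrsf12a, Tnfrsf10b, Mlkl and Casp8 in AP relative to saline mice were made in every alternative. In polyI:C-AP relative to saline mice, 5 members were called after median-of-ratios scaling (Tnf, Tnfrsf1a and Fas lost) and 5 with limma-voom (Tnf, Fas and Ripk3 lost). In polyI:C-AP relative to AP mice, 1 member (Tnfrsf1b) was called with limma-voom and 1 at an unadjusted p. With 1 mouse left out, the members called ranged from 5 to 8 in AP relative to saline mice, from 0 to 0 in polyI:C-AP relative to AP mice and from 7 to 8 in polyI:C-AP relative to saline mice. The remaining mouse of a group is then assumed to vary like the other groups.

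With the replicate number as a block, the members called were 8, 0 and 7 in these 3 comparisons, and Tnf against saline mice was lost (adjusted p = 0.064 from limma). No other call changed with the block. Correlations of deviations between equally numbered mice were below 0.1, which cannot show whether those mice were handled together.

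Sign changes were limited to small differences. For polyI:C-AP relative to AP mice, Ripk3 was at -0.0037 after median-of-ratios scaling and between -0.41 and 0.44 with 1 mouse left out, Casp8 between -0.017 and 0.17, and Tnfrsf10b between -0.057 and 0.13. Tnfrsf1b against saline mice was at -0.27 after median-of-ratios scaling, -0.18 with limma-voom, and between -0.20 and 0.50 with 1 mouse left out. Over all tested genes, 81.8% of calls in AP relative to saline mice were up, 56.2% after median-of-ratios scaling and 64.6% with limma-voom. In polyI:C-AP relative to AP mice, 52.1% were up, 48.9% after scaling and 34.6% with limma-voom, and against saline mice 85%, 57.4% and 64.9%. The number of genes called in polyI:C-AP relative to AP mice was 142, and 90 without a filter, 28 with a prior following mean TPM, 41 without a trend, 248 with only 4 mice, 321 with limma-voom, 728 at an unadjusted p and 0 to 141 with 1 mouse left out. In AP relative to saline mice 3730 were called, and 2458 without AP replicate 2. With no fold limit, 6794 were called there and 6592 in polyI:C-AP relative to saline mice. The causes were not tested. Groups of 2 mice and few reads for Tnf and Ripk3 in saline mice limit the precision.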
